A study of Mus musculus with 90 samples.

Results

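The Cyp1, Cyp2, and Cyp3 families of cytochrome P450 (P450) were followed in mouse liver through 5 experiments on night-restricted feeding (NRF). Members were the coding RefSeq transcripts of the expression table whose gene symbol consists of Cyp1, Cyp2, or Cyp3, a letter, and a number, with the transcript of highest mean taken for each symbol. This gave 59 of the 24309 gene symbols in the table, with 3 in the Cyp1 family, 47 in Cyp2, and 9 in Cyp3. The largest subfamily was Cyp2c, with 15 members.

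P450 enzymes are heme proteins of the endoplasmic reticulum that insert an oxygen atom into their substrates, using electrons handed over by P450 oxidoreductase (Por). The Cyp1, Cyp2, and Cyp3 families are the main drug and toxin oxidising enzymes of hepatocytes, and they also act on steroids, bile acids, retinoids, and fatty acids. Their transcription is known to respond to the xenobiotic receptors AhR, CAR, and PXR, to the circadian PAR bZIP factors, and, for the sex-biased members of rodents, to growth hormone.

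RNA was sequenced from single livers in 54 libraries. In the NRF experiment, wild-type C57BL/6 mice fed at night were taken at ZT10, at ZT14 without the meal (ZT14-unfed), or at ZT14 after a meal that began at lights-off (ZT14-fed), with 2 mice per group. In the injected mice, wild-type C57BL/6 mice on NRF received vehicle, 1 mg/kg dexamethasone (dex, a synthetic glucocorticoid that activates the glucocorticoid receptor, GR), S961 (a peptide antagonist of the insulin receptor, labelled 44 nM per mouse, where the methods of the study give a dose by body weight), or dex and S961 before the meal and were taken at ZT14 fed, beside an unfed vehicle group, with 4 mice per group. In the L-GRKO experiment, Nr3c1 fl/fl mice were given an adeno-associated virus with GFP or with Cre, 2 weeks before NRF by the labels and slightly less by the methods, and taken unfed at ZT14, with 4 mice per group, and the study drove Cre from the hepatocyte promoter of thyroxine-binding globulin. In the L-IRSdKO experiment, Irs1 fl/fl, Irs2 fl/fl mice with Alb-Cre (L-IRSdKO) or without it were all given 1 mg/kg dex and all fed, with 4 mice per group, so that it holds no group without dex or without the meal. In the diet experiment, wild-type mice on chow (lean) or a high-fat diet (obese) for 10 weeks were moved to NRF and taken at ZT14 unfed or fed, with 3 mice per group. The methods give the C57BL/6N strain for the NRF, injected, and Nr3c1 fl/fl mice and C57BL/6J for L-IRSdKO, and name none for the diet mice. They name male sex for the wild-type mice of the NRF and diet experiments, an age of 10 weeks for the NRF, injected, and L-IRSdKO mice, and a diet that began at 5 weeks of age.

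Values are read counts normalised to transcript length and library size (RPKM). Each experiment was fitted apart with limma on log2(RPKM + 0.5), and all log2 fold changes are on that scale. Genes entered when their mean in the experiment reached 0.5 RPKM. A member was called when its p, adjusted over all genes tested by the method of Benjamini and Hochberg (BH), was under 0.05. The p-values measure the spread between mice of a group. In whole liver, fewer cells of a type and less RNA per cell cannot be told apart. Depth relative to fed vehicle replicate 1, estimated from the step that a single read makes in the RPKM of low transcripts, was between 0.545 and 1.13 in the injected mice, between 0.303 and 0.372 in the L-IRSdKO experiment, and between 1.09 and 3.19 in the others. Such an estimate can miss a library by a whole multiple. The NRF libraries were ribosome-depleted and all others poly(A)-selected. The targeted genes followed their labels, with Nr3c1 at 3.93 to 5.35 RPKM in L-GRKO and 12.8 to 16.2 RPKM in its controls, and Irs1 at 0.149 to 0.321 RPKM in L-IRSdKO and 2.21 to 4.73 RPKM in its controls. Irs2 was at 0.272 to 1.00 RPKM in L-IRSdKO and 0.614 to 5.61 RPKM in controls, so the groups overlapped. The L-IRSdKO experiment stood apart in scale. No gene there exceeded 1000 RPKM, against 32 to 60 genes per library elsewhere, and the hepatocyte transcript Alb was at 650 to 914 RPKM against 18853 to 60597 RPKM elsewhere. Levels of abundant members are therefore not comparable between that experiment and the others.

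Most of the hepatic P450 signal came from a small number of members. Over all libraries, 16 members had a mean of at least 100 RPKM and 17 had a mean under 0.5 RPKM, and Cyp2j11 was listed at 0 in every library. Cyp2e1, the ethanol-oxidising enzyme of pericentral hepatocytes, had the highest median level, 4726 RPKM, followed by Cyp3a11, a main drug-oxidising enzyme and PXR target, with 1302 RPKM. Next came Cyp2f2, a naphthalene-oxidising enzyme, with 650 RPKM, and Cyp2a5, the coumarin hydroxylase, with 602 RPKM. The AhR target Cyp1a2 had a median of 248 RPKM, and the other AhR targets, Cyp1a1 and Cyp1b1, had medians of 0.371 and 0.109 RPKM. Medians were 396 RPKM for Cyp2d10, 102 RPKM for the epoxygenase Cyp2c54, and 78.2 RPKM for Cyp2d22, none of them called in any comparison. The female-biased Cyp3a16 had a median of 0.393 RPKM and did not exceed 2.64 RPKM, and Cyp3a41a was listed at 0 in 38 libraries and did not exceed 1.05 RPKM. The members together made up 2.24% to 3.28% of the summed RPKM of a library in 4 experiments and 1.11% to 1.39% in the L-IRSdKO experiment.

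**Figure D1:**
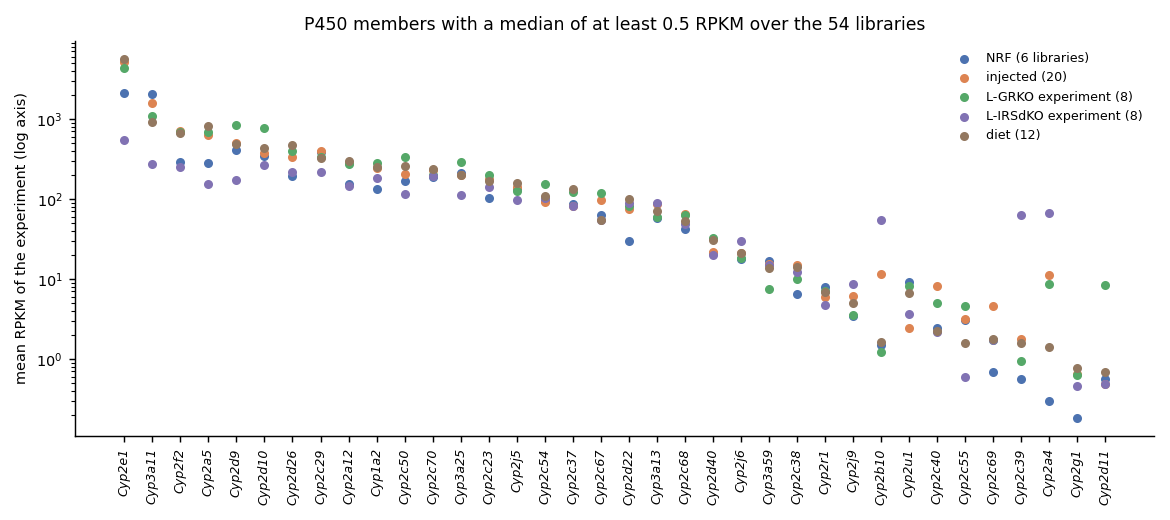
Mean level of each member in each of the 5 experiments, for members with a median of at least 0.5 RPKM over the 54 libraries, with RPKM on a log axis and members ordered by median. Cyp2e1 leads at a median of 4726 RPKM, and Cyp2b10, Cyp2c39, and Cyp2a4 in the middle and at the right have means in the L-IRSdKO experiment far above those of the other experiments.

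Some members cannot be separated from close copies. Of all stretches of 50 bases in the transcript, 98.6% of those of Cyp3a41a and 93.5% of those of Cyp3a41b occurred in another gene, as did 53.5% for Cyp2c67, 38.4% for Cyp2d10, 36.5% for Cyp2a4, 30.7% for Cyp2c50, 29.2% for Cyp2c37, and 29.0% for Cyp2d9. The shares were lower for Cyp3a44 (18.2%), Cyp2b13 (19.0%), Cyp3a11 (14.7%), Cyp2b9 (10.8%), and Cyp2b10 (7.87%), and Cyp2u1 shared none. Values of members with shared stretches are uncertain, since reads could be counted for either copy. An exon of Cyp2u1 overlaps the antisense transcript 4930534D22Rik over 548 bp, and the strand that was counted is not given in the sources used here.

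GR binding sites lay near most of the P450 genes. The study mapped GR and FOXO1 in unfed and fed livers at ZT14 and called the peaks in the unfed ones. Its peak lists give positions only, in mm9. A GR peak lay within 50 kb of the start of 44 of 59 members (74.6%) and a FOXO1 peak within 50 kb of 41 (69.5%), and 56 of 59 (94.9%) had a DNase I hypersensitive site (DHS) at that distance. Among the 36 members tested in the injected mice, the shares were 86.1% for GR and 83.3% for FOXO1, beside 48.5% and 51.2% of all placed genes tested there. Many members stand in clusters, so that neighbours share peaks and do not count as independent.

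The GR peaks closest to the members that responded to dex are printed to show what is bound there. Each is the peak nearest the gene start within 20 kb, read from the mm9 genome on the strand of the gene, 180 bases long and free of annotated exons, with the letters of the GR recognition hexamer AGAACA in capitals. The hexamer is read on both strands and was found in 27.7% of all 10446 GR peaks and 38.9% of the 95 GR peaks within 50 kb of a member. In Cyp2u1, the capitals mark the AhR core GCGTG, found in 9.25% of all GR peaks and 5.26% of those near members. The other motifs searched were the palindrome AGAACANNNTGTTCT, which contains the hexamer on both strands (0.287% of all GR peaks, 1.05% near members), the FOXO motif TGTTTAC (7.29% and 11.6%), and the PAR bZIP motif TTANGTAA (5.09% and 3.16%), and none of the peaks printed holds these. The peak of Cyp2b10, a gene at chr7:26682639-26711643, is at chr7:26686067-26686246, 3517 bp after the start and inside the gene.
Cyp2b10: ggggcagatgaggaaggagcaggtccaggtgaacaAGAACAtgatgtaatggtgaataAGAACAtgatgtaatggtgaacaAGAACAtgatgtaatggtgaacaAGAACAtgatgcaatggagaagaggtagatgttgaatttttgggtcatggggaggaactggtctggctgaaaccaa
The peak of Cyp2u1, a gene on the minus strand of chr3:130993409-131006145, is at chr3:130998593-130998772, 7463 bp after the start and inside the gene.
Cyp2u1: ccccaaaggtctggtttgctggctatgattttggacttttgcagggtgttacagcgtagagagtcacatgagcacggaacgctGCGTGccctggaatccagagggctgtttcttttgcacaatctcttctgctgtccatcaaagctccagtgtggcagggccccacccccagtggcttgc
The peaks of the neighbours Cyp2c37 and Cyp2c50 are at chr19:40066718-40066897 and chr19:40163993-40164172, centred 102 and 96 bp before their gene starts, and that of Cyp2d9 is at chr15:82280597-82280776, 2121 bp before the start.
Cyp2c37: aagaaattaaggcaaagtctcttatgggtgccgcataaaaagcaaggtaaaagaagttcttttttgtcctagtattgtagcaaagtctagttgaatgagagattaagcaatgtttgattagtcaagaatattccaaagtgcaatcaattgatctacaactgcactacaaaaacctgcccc
Cyp2c50: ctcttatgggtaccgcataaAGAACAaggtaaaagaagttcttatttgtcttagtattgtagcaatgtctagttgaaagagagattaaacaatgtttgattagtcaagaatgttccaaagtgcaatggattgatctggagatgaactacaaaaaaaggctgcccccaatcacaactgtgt
Cyp2d9: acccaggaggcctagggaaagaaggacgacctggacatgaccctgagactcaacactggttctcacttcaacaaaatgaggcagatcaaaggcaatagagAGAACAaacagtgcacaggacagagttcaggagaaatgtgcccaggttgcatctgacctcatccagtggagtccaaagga

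The Cyp2b10 peak holds 4 hexamers, each starting 23 bases after the one before it, in a repeated stretch. Only 11 of the 10446 GR peaks (0.105%) held 4 or more. It overlapped no FOXO1 peak and no DHS. The Cyp2c50 and Cyp2d9 peaks hold 1 hexamer each, and the Cyp2c37 peak none. The peaks of Cyp2c37 and Cyp2d9 overlapped a FOXO1 peak and a DHS each, and those of Cyp2c50 and Cyp2u1 a DHS. No GR peak lay within 100 kb of Cyp2a4. A match is a description of the letters, and none of these sites was tested.

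Across the 12 comparisons of 2 groups, 24 members were called at least once and 15 of the 59 passed the filter in no experiment. Cyp2u1 was called in 8 comparisons and Cyp2b10 in 4, Cyp2c50 and Cyp2d9 in 2 each, and the other called members in 1 each. In both directions together, the share of members called was above that of all genes in 4 of the 12 comparisons. These were dex, L-IRSdKO, L-GRKO, and the meal in NRF mice, and in the last 2 the shares were close. In L-GRKO 3 of 42 members were called, beside 777 of 11647 genes. For the NRF meal 1 of 35 members was higher and 2 lower, beside 735 of 10905 genes called. The median log2 fold change of all genes tested ran from -0.14 to 0.12 over the comparisons, and that of the members from -0.21 to 0.06.

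**Figure D2:**
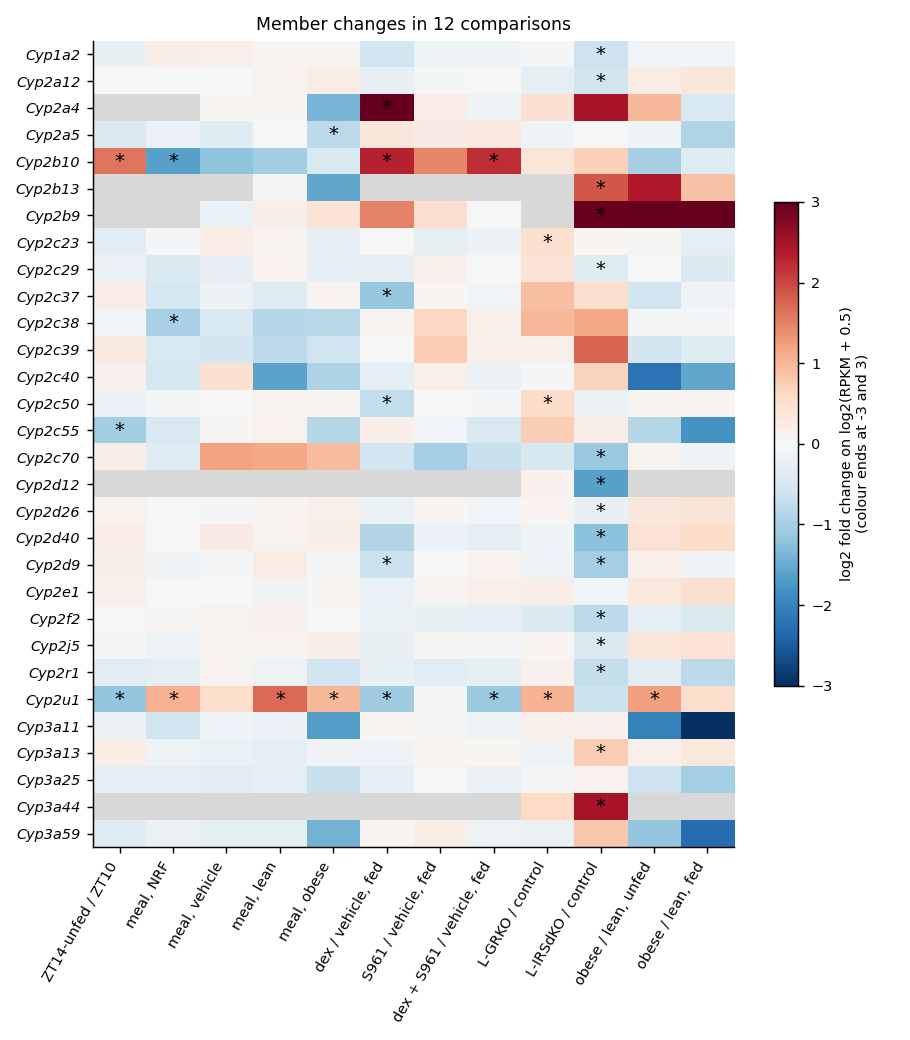
Log2 fold change of 30 members (rows) in 12 comparisons (columns), with red for higher and blue for lower in the first-named group, grey for members below the filter, and a star for a BH-adjusted p under 0.05. Cyp2u1 carries 8 stars over 4 of the experiments, and the L-IRSdKO column holds the most stars, 15.

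Cyp2u1, which encodes an omega-hydroxylase of long-chain fatty acids, fell toward the dark phase without food and rose with the meal. Its level was 11.7 and 11.55 RPKM in the ZT10 replicates, 5.99 and 3.99 at ZT14-unfed, and 10.3 and 11.1 at ZT14-fed. Both unfed values at ZT14 lay below all others of the experiment. The log2 fold change was -1.17 (SE 0.17, limma adjusted p = 0.0116) from ZT10 to ZT14-unfed and 1.05 (SE 0.17, limma adjusted p = 0.0179) from ZT14-unfed to ZT14-fed. With only 2 mice per group, the first call was lost without either ZT10 replicate (limma adjusted p of 0.0649 and 0.0605) and the second without either ZT14-fed replicate (0.0813 and 0.149).

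The meal raised Cyp2u1 again in the diet experiment. Unfed lean mice had 1.57, 2.34, and 2.41 RPKM and fed lean mice 7.54, 7.22, and 8.98 RPKM. Unfed obese mice had 4.92, 5.73, and 6.01 RPKM and fed obese mice 12.1, 12.3, and 10.4 RPKM. The fed and unfed values did not overlap under either diet, and every unfed obese mouse lay above every unfed lean mouse. The rise with the meal was 1.70 (SE 0.14, limma adjusted p = 0.000138) in lean and 1.00 (SE 0.14, limma adjusted p = 0.00504) in obese mice. Obese exceeded lean mice by 1.23 (SE 0.14, limma adjusted p = 0.0027) before the meal and by 0.52 (SE 0.14, limma adjusted p = 0.105) after it. The difference between the meal effects was -0.71 (SE 0.20, limma adjusted p = 0.137), and it did not pass the test. The calls in lean, obese, and unfed mice were each kept when any of the 6 libraries was left out.

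Dex lowered Cyp2u1, and deletion of GR raised it. Fed vehicle mice had 2.55, 3.10, 2.85, and 6.21 RPKM, fed dex mice 1.19, 0.927, 1.59, and 2.08 RPKM, and mice with dex and S961 1.24, 0.825, 1.57, and 1.92 RPKM. Both dex groups lay below all fed vehicle mice. Replicate 4 was the highest in Cyp2u1 in each of the 5 injected groups. With S961 alone, the mice had 3.15, 2.33, 3.59, and 4.82 RPKM and overlapped the vehicle group. The log2 fold change was -1.06 (SE 0.28, limma adjusted p = 0.04) with dex, -1.11 (SE 0.28, limma adjusted p = 0.015) with both agents, and -0.03 (SE 0.28, limma adjusted p = 0.979) with S961. These 3 comparisons share the fed vehicle group, in which replicate 4 was highest. Without that library, the change with dex was -0.81 (limma adjusted p = 0.101), and the call was kept in 2 of 8 omissions of a library. The call with both agents was kept in 7 of 8 and lost without dex and S961 replicate 2 (-0.95, limma adjusted p = 0.0634). Unfed vehicle mice had 1.45, 2.06, 2.32, and 3.68 RPKM and overlapped the fed vehicle mice, with a meal effect of 0.52 (SE 0.28, limma adjusted p = 0.321).

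In the L-GRKO experiment, Cyp2u1 was at 4.41, 5.77, 5.60, and 5.33 RPKM in controls and at 12.05, 11.3, 9.60, and 12.3 RPKM in L-GRKO livers. All 4 knockout livers exceeded all controls. The log2 fold change of 1.03 (SE 0.12, limma adjusted p = 0.000755) was called in each of the 8 omissions of a library. In the L-IRSdKO experiment, control mice had 2.12, 4.94, 6.99, and 4.49 RPKM and L-IRSdKO mice 1.88, 2.64, 3.33, and 2.58 RPKM. These groups overlapped, and the change was -0.65 (SE 0.30, limma adjusted p = 0.173).

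Cyp2b10, the classical CAR target in mouse liver, went the opposite way to Cyp2u1 in both steps of the NRF experiment. It was at 0.628 and 0.641 RPKM at ZT10, 1.98 and 4.36 RPKM at ZT14-unfed, and 0.860 and 0.429 RPKM at ZT14-fed. The unfed mice at ZT14 were the highest. Cyp2b10 rose by 1.61 (SE 0.32, limma adjusted p = 0.0258) from ZT10 to ZT14-unfed and fell by 1.63 on the log2 scale (SE 0.32, limma adjusted p = 0.0296) with the meal. These levels are close to the filter and each call was kept in 1 of 4 omissions of a library, with ranges of 1.13 to 2.10 and -2.11 to -1.14. In the vehicle mice the meal effect was -1.21 (SE 0.49, limma adjusted p = 0.186), with 5.63, 6.74, 7.70, and 9.84 RPKM unfed and 2.45, 1.36, 4.62, and 4.18 RPKM fed and no overlap between the groups. In lean mice it was -1.05 (SE 0.60, limma adjusted p = 0.232).

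Dex raised Cyp2b10 in fed mice. The dex group had 8.19, 40.6, 19.8, and 10.1 RPKM, the S961 group 4.81, 10.9, 9.41, and 12.3 RPKM, and the group with both agents 6.06, 30.7, 11.3, and 25.3 RPKM. All of these mice exceeded all 4 fed vehicle mice. The log2 fold change was 2.30 (SE 0.49, limma adjusted p = 0.0129) with dex, 2.22 (SE 0.49, limma adjusted p = 0.0074) with both agents, and 1.47 (SE 0.49, limma adjusted p = 0.153) with S961. The call with dex was lost without fed vehicle replicate 2 (2.01, limma adjusted p = 0.058) and without dex replicate 2 (1.86, limma adjusted p = 0.0586), and that with both agents was kept in 8 of 8 omissions. The dex by S961 interaction was -1.54 and did not pass the test. In the L-GRKO experiment, Cyp2b10 was between 0.210 and 2.63 RPKM in controls and between 0.196 and 2.99 RPKM in knockouts. In the L-IRSdKO experiment, where all mice had received dex, it was at 50.3, 12.1, 44.1, and 45.2 RPKM in controls and at 11.1, 83.1, 103, and 94.6 RPKM in L-IRSdKO. L-IRSdKO replicate 1 was the lowest and the other 3 exceeded all controls, with a change of 0.72 (SE 0.73, limma adjusted p = 0.536).

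**Figure D3:**
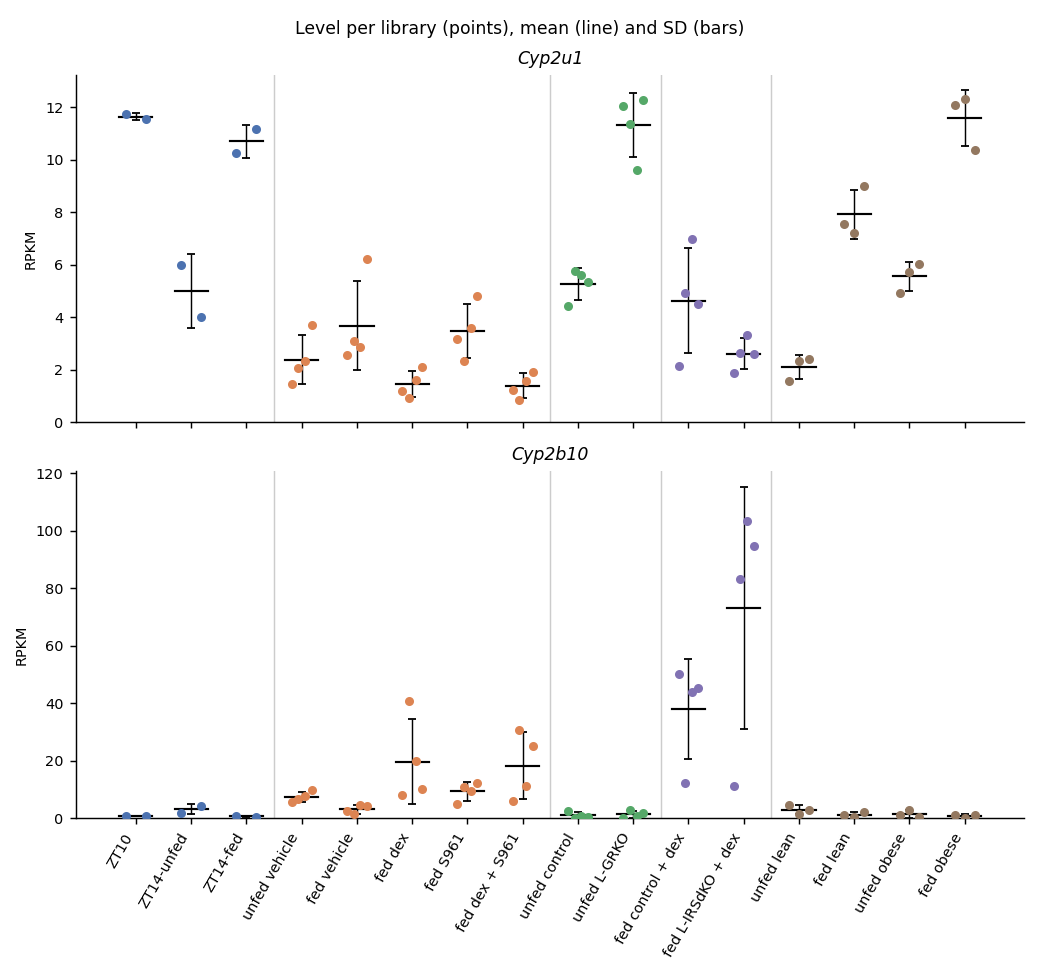
Level of Cyp2u1 (top) and Cyp2b10 (bottom) in RPKM for each library (points) of the 16 groups, with the mean (line) and SD (bars), and grey lines between experiments. Cyp2u1 lies at 3.99 to 5.99 RPKM at ZT14-unfed between 10.3 to 11.7 RPKM in the other NRF mice, and Cyp2b10 is highest in the L-IRSdKO experiment. That experiment stands apart from the others in scale, and all its mice had received dex, so the reason for the level cannot be told apart.

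The time of day changed few other members. Of the 35 members tested between ZT10 and ZT14-unfed, 1 was higher and 2 lower, beside 1.98% of all genes higher and 6.95% lower. The other call was Cyp2c55, an arachidonic acid hydroxylase and CAR and PXR target, with 6.49 and 4.29 RPKM at ZT10 and 2.88 and 1.87 RPKM at ZT14-unfed. The groups did not overlap, and the change was -1.03 (SE 0.22, limma adjusted p = 0.0331). It was kept in 1 of 4 omissions of a library, with a range of -1.30 to -0.76. The pericentral markers summed to 720 to 914 RPKM at ZT10 and 661 to 678 RPKM at ZT14-unfed, with Glul and Lgr5 called lower. The periportal marker Hal was also called lower, while the summed periportal markers overlapped. The part of these markers in the result was not tested.

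With the meal in the NRF mice, 1 of 35 members was higher and 2 lower, beside 4.84% of all genes higher and 1.9% lower. Besides Cyp2u1 and Cyp2b10, Cyp2c38 fell, from 8.06 and 7.35 RPKM to 3.96 and 3.47 RPKM. Both fed mice lay below both unfed mice, with a change of -0.96 (SE 0.11, limma adjusted p = 0.00656), which was lost without ZT14-fed replicate 2 (-0.88, limma adjusted p = 0.0715). Of the 36 members tested in the vehicle mice none was called for the meal by limma, beside 2.55% of genes higher and 0.578% lower, and 5 members had an unadjusted p under 0.05, against 19.3% of genes. When the replicate number entered the model, Cyp2c70 and Cyp2u1 were called for the meal in these mice. In lean mice only Cyp2u1 was called of 38 members, beside 16.1% of genes higher and 7.28% lower. The endothelial markers summed to 36.1 to 42.5 RPKM in fed and 49.1 to 59.3 RPKM in unfed lean mice, with all 4 called lower, and the stellate markers to 40.6 to 54.8 RPKM and 57.0 to 93.3 RPKM, with Reln called lower, and their part in the result was not tested. In obese mice Cyp2u1 was higher and Cyp2a5 lower, beside 5.17% and 2.48% of genes. Cyp2a5 was at 1222, 668, and 763 RPKM in unfed and 457, 502, and 541 RPKM in fed obese mice. The groups did not overlap, and the change of -0.77 (SE 0.21, limma adjusted p = 0.0488) was kept in 1 of 6 omissions, with a range of -0.95 to -0.52.

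Cyp2c70, which makes muricholic acids in mouse bile, missed the threshold with the meal in 3 experiments or diets. In vehicle mice it was at 170, 149, 169, and 110 RPKM unfed and 461, 366, 377, and 211 RPKM fed. All fed mice exceeded all unfed mice, by 1.21 (SE 0.36, limma adjusted p = 0.0696). It was 1.15 (SE 0.39, limma adjusted p = 0.0546) in lean and 0.94 (SE 0.39, limma adjusted p = 0.162) in obese mice, again without overlap. In the NRF mice, with 236 and 190 RPKM unfed and 151 and 172 RPKM fed, it was -0.40 (SE 0.15, limma adjusted p = 0.146). The direction thus differed between the NRF mice and the others, a difference that was not tested because the experiments were fitted apart.

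Dex changed members of the Cyp2a, Cyp2b, Cyp2c, and Cyp2d subfamilies and Cyp2u1. Of 36 members, 2 were higher and 4 lower in fed dex than in fed vehicle mice, beside 1.0% of all genes higher and 2.18% lower. The count of 6 was 0 when only these 2 groups were fitted and between 1 and 7 with a library left out. The endothelial markers summed to 35.1 to 50.7 RPKM with dex and 53.2 to 62.1 RPKM with vehicle, with Clec4g and Kdr called lower, and the Kupffer cell markers to 40.1 to 64.1 RPKM and 62.6 to 98.5 RPKM, with Cd5l called lower, and their part in the result was not tested. Adgre1 and Cd5l were also lower with S961 and with both agents, and higher after the vehicle meal. The Kupffer cell sums there were 42.7 to 64.5 RPKM with S961, 50.8 to 59.8 RPKM with both agents, and 45.1 to 58.7 RPKM in unfed vehicle mice. All these comparisons share the fed vehicle group, so the shift in Kupffer cell markers was not particular to dex. The pericentral markers summed to 606 to 831 RPKM with dex and 753 to 1049 RPKM with vehicle, with Glul called lower. The periportal marker Sds was called higher, and the part of these markers was not tested either. Cyp2c37, an arachidonic acid oxidising enzyme and CAR target, was at 116, 94.6, 103, and 53.97 RPKM with vehicle and at 42.7, 35.0, 36.3, and 47.4 RPKM with dex. All dex mice lay below all vehicle mice, and the change of -1.13 (SE 0.20, limma adjusted p = 0.00444) was called in each of the 8 omissions of a library. With both agents its level was between 73.6 and 103 RPKM. Its neighbour Cyp2c50 was at 248, 226, 224, and 197 RPKM with vehicle and at 121, 102, 122, and 207 RPKM with dex. Dex replicate 4 lay within the vehicle range, and the change was -0.74 (SE 0.17, limma adjusted p = 0.0176), kept in 4 of 8 omissions, with a range of -0.96 to -0.62. With both agents Cyp2c50 was at 187, 224, 213, and 255 RPKM, which overlapped the vehicle group, and it was not called.

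Cyp2d9, the male-biased testosterone hydroxylase, was at 525, 554, 564, and 453 RPKM with vehicle and at 365, 212, 355, and 458 RPKM with dex. Dex replicate 2 was lowest and replicate 4 lay within the vehicle range, with a change of -0.64 (SE 0.17, limma adjusted p = 0.0389), kept in 2 of 8 omissions, with a range of -0.79 to -0.42. With both agents Cyp2d9 was at 583, 581, 497, and 543 RPKM, which overlapped the vehicle group, and it was not called. The female-biased steroid hydroxylase Cyp2a4 was at 7.62, 165, 44.9, and 0.135 RPKM with dex and at 0.255 to 0.468 RPKM with vehicle. It was above the vehicle range in 3 of the 4 dex mice and below it in the fourth. Its mean was 54.4 RPKM with dex and between 0.362 and 0.553 RPKM in the other injected groups, so that it entered the test through the dex group. The change of 3.98 (SE 1.01, limma adjusted p = 0.035) was kept in 1 of 8 omissions, with a range of 2.79 to 5.47. With both agents Cyp2a4 was at 0.145 to 0.770 RPKM. Another female-biased member, Cyp2b9, was at 0.049, 6.76, 2.18, and 0 RPKM with dex, a change of 1.498 (SE 0.63, limma adjusted p = 0.206). Cyp2b9 likewise passed the filter through the dex group. In the same libraries the female-biased liver factor Cux2 was at 0.169, 5.33, 2.92, and 0 RPKM, and at 0.020 to 0.244 RPKM with vehicle, values that were looked up after those of Cyp2a4 were seen. Dex replicates 2 and 3 were thus highest in both Cyp2b9 and Cux2, and dex replicate 2 was the shallowest library of the injected mice, at 0.545 times the depth of fed vehicle replicate 1. The part of depth or of these mice in the result was not tested. The other members listed as female-biased did not rise as a group with dex. Cyp2c69 was at 1.204, 11.543, 4.989, and 3.207 RPKM with dex and 2.836 to 6.722 RPKM with vehicle, so the groups overlapped. With dex, Cyp3a16 (0.336 to 0.807 RPKM) and Cyp3a44 (0.118 to 0.284 RPKM) lay within their vehicle ranges. Cyp2b13, Cyp3a41a, and Cyp3a41b were at 0 in all dex and fed vehicle mice.

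With S961 alone, none of 36 members was called by limma, beside 0.942% of genes higher and 0.96% lower, and 5 members and 14.3% of genes had an unadjusted p under 0.05. With both agents, Cyp2b10 was higher and Cyp2u1 lower, beside 2.7% and 7.89% of genes. The interaction of dex with S961 was called by limma for no member and for 0.0% of the genes tested, while 9 members and 513 genes (4.56%) had an unadjusted p under 0.05.

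Loss of GR in unfed livers raised 3 of 42 members and lowered none, beside 4.45% of all genes higher and 2.22% lower. The members other than Cyp2u1 were Cyp2c50 and Cyp2c23, the mouse gene also known as Cyp2c44, an arachidonic acid epoxygenase. Cyp2c50 was between 222 and 295 RPKM in controls and between 317 and 453 RPKM in knockouts, with no overlap. The change was 0.55 (SE 0.14, limma adjusted p = 0.0354) and was kept in 3 of 8 omissions of a library, with a range of 0.47 to 0.66. Cyp2c23 was at 162, 160, 200, and 148 RPKM in controls and at 210, 212, 285, and 232 RPKM in knockouts. These groups did not overlap either, and the change of 0.49 (SE 0.13, limma adjusted p = 0.0441) was kept in 1 of 8 omissions, with a range of 0.39 to 0.58. Thus Cyp2u1 and Cyp2c50 were called lower with dex and higher without GR, in separate mice. With both agents, Cyp2u1 was called lower too, but Cyp2c50 was not called. Cyp2d9 was not called without GR. The 4 erythroid markers were all higher in the knockouts, at a summed 454 to 893 RPKM against 308 to 401 RPKM, and the summed periportal markers were lower, at 2114 to 2350 RPKM against 3000 to 4081 RPKM, and their part in the result was not tested.

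The largest number of members changed in L-IRSdKO livers. Of 40 members, 4 were higher (10.0%) and 11 lower (27.5%), beside 9.05% of all genes higher and 8.31% lower. Of the 4 members higher in L-IRSdKO, Cyp2b9, Cyp2b13, and Cyp3a44 are female-biased in mouse liver, and all 3 passed the filter through the L-IRSdKO group alone. Of 8 members listed as female-biased, 5 were tested, and Cyp2a4 and Cyp2c69 were not called, the latter with means of 1.81 RPKM in L-IRSdKO and 1.63 RPKM in controls. Cyp3a16, Cyp3a41a, and Cyp3a41b were below the filter, with Cyp3a41a and Cyp3a41b at 0 in every library of the experiment. The sex of the L-IRSdKO mice is not given in the sources used here. Xist was at most 0.111 RPKM in any of the 54 libraries. Cyp2b9 was at 0.147, 0, 0.145, and 0.266 RPKM in controls and at 16.4, 66.3, 93.2, and 61.4 RPKM in L-IRSdKO. The groups were far apart. The difference of 6.32 (SE 0.46, limma adjusted p = 0.000451) was called in each of the 8 omissions of a library. Cyp2b13 was at 0, 0, 0, and 0.133 RPKM in controls and at 0.292, 2.28, 3.29, and 1.19 RPKM in L-IRSdKO, and Cyp3a44 was at 0.141, 0.937, 0.139, and 0.510 RPKM in controls and at 0.560, 5.46, 8.09, and 9.70 RPKM in L-IRSdKO.

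The groups did not overlap for Cyp2b13, and for Cyp3a44 only L-IRSdKO replicate 1 fell into the control range. The changes were 1.87 (SE 0.45, limma adjusted p = 0.0229) and 2.47 (SE 0.67, limma adjusted p = 0.036), kept in 2 and 1 of 8 omissions, with ranges of 1.55 to 2.30 and 2.11 to 3.20. Cyp2d12, below, passed the filter through the control group alone. Cyp3a13 was between 47.1 and 84.0 RPKM in controls and between 98.2 and 132 RPKM in L-IRSdKO, a rise of 0.77 (SE 0.18, limma adjusted p = 0.0212), kept in 4 of 8 omissions, with a range of 0.62 to 0.90. The female-biased Cyp2a4 had 79.8, 5.51, 1.27, and 67.4 RPKM in controls and 42.9, 136, 73.8, and 124 RPKM in L-IRSdKO. These groups overlapped, and the change of 2.47 (SE 1.14, limma adjusted p = 0.169) was not called. The retinoid-oxidising Cyp2c39 had 53.2, 1.98, 38.9, and 35.5 RPKM in controls and 13.6, 119, 94.4, and 151 RPKM in L-IRSdKO, with a change of 1.75 (SE 1.06, limma adjusted p = 0.285).

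Among the members lower in L-IRSdKO was the male-biased Cyp2d9, at 240, 240, 225, and 228 RPKM in controls and 141, 119, 116, and 91.1 RPKM in L-IRSdKO. All knockouts lay below all controls, a change of -1.01 (SE 0.12, limma adjusted p = 0.00202). Cyp2f2 was at 336, 302, 326, and 325 RPKM in controls and 226, 169, 187, and 169 RPKM in L-IRSdKO, again apart, with a change of -0.79 (SE 0.09, limma adjusted p = 0.00238). Cyp2d40 changed by -1.23 (SE 0.21, limma adjusted p = 0.00688), the AhR target Cyp1a2 by -0.62, Cyp2a12 by -0.55, and the CAR target Cyp2c29 by -0.37. These 6 members were called in each of the 8 omissions of a library. Calls were kept in 3 omissions each for Cyp2c70 (-1.12), Cyp2d12 (-1.62), and the vitamin D hydroxylase Cyp2r1 (-0.71), in 2 for Cyp2d26 (-0.21), and in 1 for the epoxygenase Cyp2j5 (-0.44). Cyp2d members made up 4 of the 11. Markers of other cell types moved as well, with the summed fat markers at 33.2 to 60.1 RPKM in L-IRSdKO and 18.3 to 30.2 RPKM in controls, carried by Fabp4, while Adipoq was at 0 in all L-IRSdKO livers. The Kupffer cell markers summed to 248 to 318 RPKM in L-IRSdKO and 141 to 262 RPKM in controls, with overlap, and only Clec4f was called higher. The pericentral markers summed to 634 to 714 RPKM in L-IRSdKO and 695 to 726 RPKM in controls, with Glul and Gulo called lower. The endothelial markers summed to 83.4 to 126 RPKM and 81.9 to 108 RPKM, with Pecam1 and Stab2 called higher. Their part in the result was not tested.

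**Figure D4:**
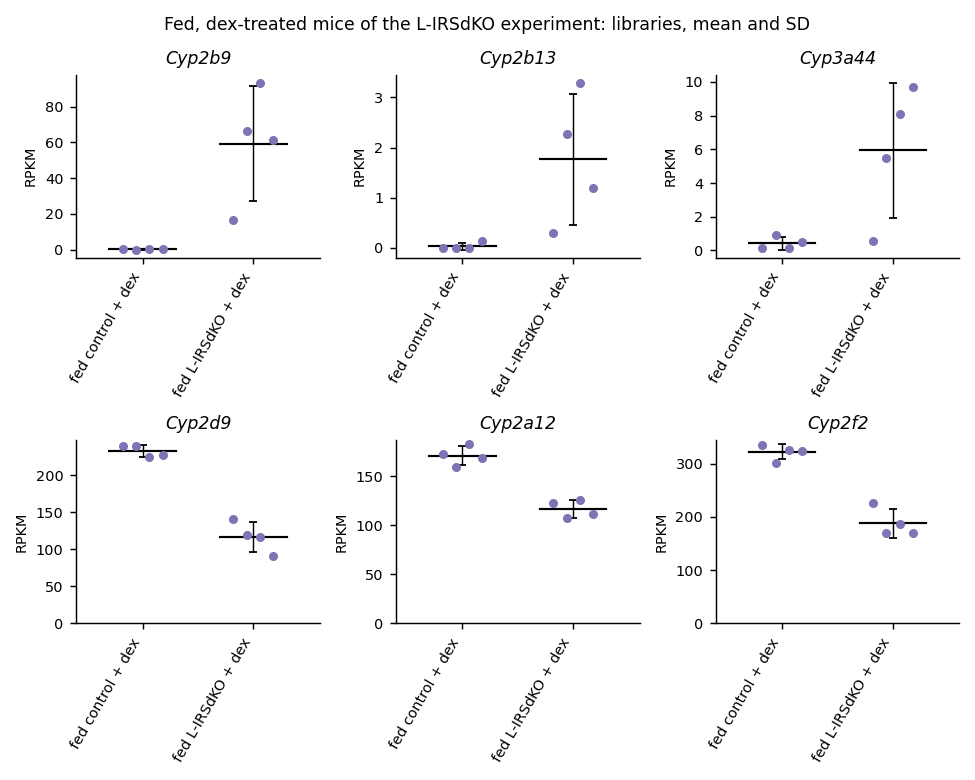
RPKM of 3 members that were higher (top) and 3 that were lower (bottom) in fed, dex-treated L-IRSdKO mice than in their fed, dex-treated controls, with 1 point per library, the mean (line), and the SD (bars). Cyp2b9 is at most 0.266 RPKM in controls and at least 16.4 RPKM in L-IRSdKO, whereas all L-IRSdKO values of Cyp2d9 lie below all control values.

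In obese mice, Cyp3a11 and Cyp2b9 had the widest shifts after the meal, short of the test. After the meal, Cyp3a11 was at 870, 1124, and 2185 RPKM in lean and 86.3, 80.9, and 206 RPKM in obese mice. No obese mouse reached the lean range, and the change was -3.51 (SE 0.86, limma adjusted p = 0.0865). Before the meal it was at 1634, 1813, and 1042 RPKM in lean and 1527, 415, and 70.5 RPKM in obese mice, so that obese replicate 1 lay within the lean range, with a change of -2.03 (SE 0.86, limma adjusted p = 0.19). Cyp3a59 was at 11.6, 14.01, and 26.2 RPKM in fed lean and 2.51, 2.65, and 3.81 RPKM in fed obese mice, with a change of -2.28 (SE 0.56, limma adjusted p = 0.0872). The groups did not overlap. Cyp3a25 likewise did not overlap, at 196 to 278 RPKM in fed lean and 107 to 119 RPKM in fed obese mice, with a change of -1.01 (SE 0.27, limma adjusted p = 0.101).

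The female-biased Cyp2b9 was at 0.592, 0.076, and 0.449 RPKM in fed lean and 7.92, 7.23, and 47.8 RPKM in fed obese mice, and at 0.443, 0.086, and 0.221 RPKM in unfed lean and 0.156, 174, and 11.7 RPKM in unfed obese mice. Fed obese mice all exceeded fed lean mice, and unfed obese replicate 1 stayed within the lean range. The changes were 4.12 (SE 1.502, limma adjusted p = 0.173) fed and 3.93 (SE 1.502, limma adjusted p = 0.152) unfed. Cyp2c40 was at 10.6, 2.46, and 4.74 RPKM in unfed lean and 3.54, 0.157, and 0.138 RPKM in unfed obese mice, with a change of -2.22 (SE 0.70, limma adjusted p = 0.0908) and overlap through obese replicate 1.

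The count between unfed obese and unfed lean mice moved only when unfed obese replicate 1 was left out. With all libraries, 1 of 38 members, Cyp2u1, was higher in unfed obese than in unfed lean mice and none was lower, beside 3.52% of genes higher and 1.7% lower. Without replicate 1, 15 members were called, 7 higher and 8 lower, beside 11.7% of genes in either direction. Cyp2b9 and Cyp2b13 entered the test through the obese groups, with means under 0.5 RPKM in both lean groups. The change was then 5.97 for Cyp2b9 (limma adjusted p = 0.00655), 3.62 for Cyp2b13 (0.0285), -3.08 for Cyp3a11 (0.0177), -3.10 for Cyp2c40 (0.00713), and -2.89 for Cyp2c69 (0.0115). Between fed obese and fed lean mice none of 38 members was called by limma, beside 0.289% of genes higher and 0.21% lower, and 15 members and 2282 of the 11432 genes tested had an unadjusted p under 0.05. When only these groups were fitted, so that the spread of the unfed groups did not enter, 13 of 36 members were called, 5 higher and 8 lower, beside 6.3% of genes, with Cyp3a11 at a limma adjusted p of 0.00935 and Cyp2b9 at 0.0192. The interaction of diet and meal was called by limma for none of 38 members and for 0.744% of genes, and 3 members and 1713 of the 11432 genes had an unadjusted p under 0.05. The endothelial markers summed to 28.9 to 37.7 RPKM in unfed obese and 49.1 to 59.3 RPKM in unfed lean mice, and their part in the result was not tested.

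**Figure D5:**
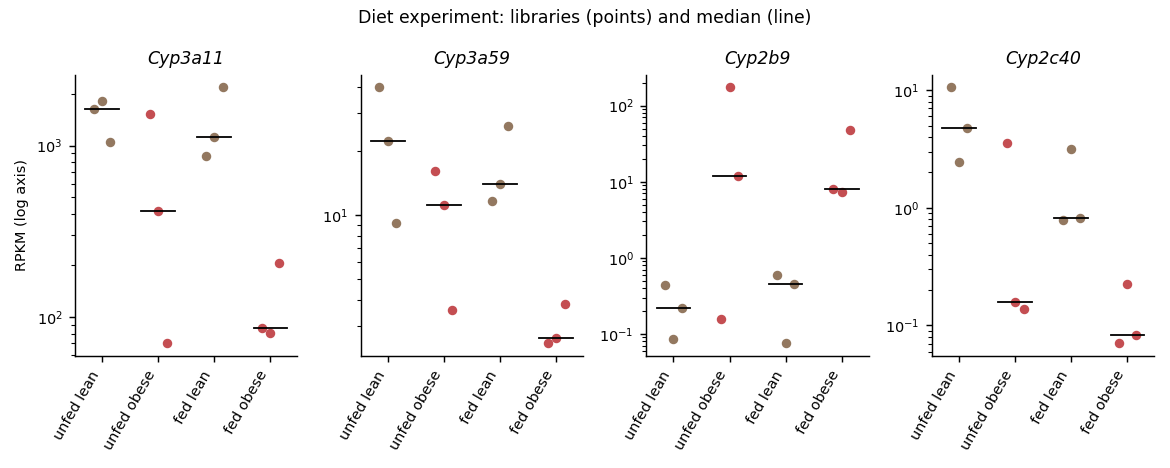
RPKM on a log axis of Cyp3a11, Cyp3a59, Cyp2b9, and Cyp2c40 in the diet experiment, with 1 point per library and a line at the median of the 3 libraries. Cyp3a11 is at 80.9 to 206 RPKM in fed obese and 870 to 2185 RPKM in fed lean mice, and 1 unfed obese mouse lies with the lean mice in Cyp3a11, Cyp2b9, and Cyp2c40.

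Of 18 regulators of P450 transcription, 16 or 17 were tested per comparison. From ZT10 to ZT14-unfed, 2 rose, Nfil3 (1.76) and Hnf4a (0.56), and 4 fell, namely the PAR bZIP factors Dbp (-2.41) and Tef (-0.81), CAR (Nr1i3, -0.66), and Rxra (-0.53). With the meal in NRF mice Dbp, Hlf, and Nr1i3 rose by 0.76, 0.81, and 0.44, and Nfil3, the repressor at PAR bZIP sites, changed by -1.35. PXR (Nr1i2) was lower after the meal in vehicle (-0.49) and in lean mice (-0.57), and in lean mice Ahr (-0.65) and Ppara (-0.81) were lower and Nr3c1 (0.29) higher. Dbp was lower after the meal in obese mice (-2.07), at 93.6, 27.8, and 31.7 RPKM unfed and 12.4, 10.4, and 7.70 RPKM fed. Unfed obese replicate 1 was thus far above the others in Dbp. Tiparp, an AhR target and repressor of AhR, rose with dex (1.34) and with both agents (0.94), and with both agents Nfil3 (0.86) and Nr1i2 (0.38) rose too. Without GR, Nfe2l2 (0.78) and Tef (0.39) rose beside the fall of Nr3c1. In L-IRSdKO, Stat5b rose by 0.54, and Cux2, which activates female-biased and represses male-biased liver genes, was at 9.79 to 13.2 RPKM against 0.106 to 1.57 RPKM in controls, a rise of 3.37 (SE 0.37, limma adjusted p = 0.00174). In unfed obese mice Nfe2l2 was higher (0.35) and Hnf4a lower (-0.48). With S961, between fed obese and fed lean mice, and in both interactions, none of these genes, of the electron donors, or of the heme enzymes was called by limma.

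All 5 electron donors and 12 enzymes of heme synthesis and breakdown were tested throughout. Por rose by 0.69 from ZT10 to ZT14-unfed, while Cyb5b fell (-0.77). In lean mice Por was lower after the meal (-0.73), and it was lower without GR (-0.61), where Cyb5b was higher (0.65). In L-IRSdKO Por was higher (0.25), and Cyb5b (-0.55), Cyb5r3 (-0.34), and Pgrmc1 (-0.23) were lower. Alad, the enzyme that joins aminolevulinate into porphobilinogen, was called in 7 comparisons. It was higher after the meal in NRF (1.18), lean (0.85), and obese mice (0.49) and without GR (1.39), and lower with dex (-0.53), with both agents (-0.65), and in L-IRSdKO (-0.95). In the former 6 of these Cyp2u1 was called in the same direction, and in L-IRSdKO Cyp2u1 changed by -0.65 without a call. Of the other heme enzymes, Hmox1 was higher at ZT14-unfed (0.79), after the meal in vehicle mice (0.76), without GR (0.81), and in L-IRSdKO (0.64), and Alas1, the rate-limiting enzyme of heme synthesis, was lower without GR (-0.70). Hmox2 was lower after the meal in vehicle (-0.34) and lean mice (-0.35) and without GR (-0.64) and higher with both agents (0.33), where Cyb5b was lower (-0.43). Ppox was lower at ZT14-unfed than at ZT10 (-0.70), Cpox with dex (-0.68), and Uros in L-IRSdKO (-0.36).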

How the data were processed

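Livers of 54 mice were analysed from RPKM values that the authors made with STAR and HOMER on mm9 and deposited per RefSeq transcript, with no versions given in the sources used here. RPKM holds no read counts, and reads shared by gene copies or by both strands may be counted for either. GR, FOXO1, and DNase peak positions were deposited by the authors as HOMER calls in mm9, on pooled or concordant replicates and with no score.

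Symbols were matched through RefSeq (35407 of 35707 transcripts), and 1 coding transcript was kept per symbol. Models were run separately for the 5 experiments (limma 3.58.1, R 4.3.3), with all groups of an experiment sharing an eBayes trend, and p-values were adjusted over all genes. 14 comparisons were made, including 2 interactions. All value columns were used. Peaks were assigned by centre to gene start, and sequences were read from mm9. The tables were handled with Python 3.11.15, pandas 2.3.3, and numpy 2.4.6. The fit was tested on simulated data.

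Named were the members called in a comparison (at most 15, by size of change), a fixed set of textbook members whatever their values, the targeted genes, and the called genes among 18 regulators, 5 electron donors, and 12 heme enzymes. Cyp2c23 is Cyp2c44 in that set, and Cyp2c69 was named with it as a female-biased member. Members and lists were chosen with earlier results of these data known. Alternatives were other pseudocounts, filters, scaling, the compared groups alone, a replicate block, and each library left out. Replicates are separate mice by their labels. The number of mice limits the precision, and the RPKM values give only estimates of relative depth. Read totals that the study lists for some libraries are not used here. The result for 1 heme enzyme is not reported here.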

Additional observations from a re-analysis of the deposited data

Results flagged for a closer look

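In groups of 4 mice, a library was marked when its gap to the nearest of the others exceeded Dixon's 95% critical share of the range of the group. Of 50 such groups of called members, 4 held such a library, and chance gives about 1 in 20. Cyp2u1 was at 6.208 RPKM in fed vehicle replicate 4 and at 2.547 to 3.099 RPKM in the other fed vehicle mice, and its call with dex was lost without that library. Cyp2b13 was at 0.133 RPKM in replicate 4 of the L-IRSdKO controls and at 0 in the others. Cyp2c29 was at 193.615 RPKM in L-IRSdKO replicate 2 and at 187.188 to 188.22 RPKM in the others. Cyp2d12 was at 0.169 RPKM in L-IRSdKO replicate 1 and at 0 in the others.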

How the results depend on the processing

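The change of a called member reversed its sign in no alternative in which it was tested, but the counts of called members moved. Without a filter the counts were 0 (3 in the report) from ZT10 to ZT14-unfed, 1 (3) for the NRF meal, 3 (6) for dex, 1 (3) for L-GRKO, 2 (1) for the lean meal, and 1 (2) for the obese meal. With a filter at 2 RPKM they were 6 for L-GRKO and 2 for the lean meal, and with median-ratio scaling 3 for dex and 1 for L-GRKO. With the compared groups alone they were 1 from ZT10 to ZT14-unfed, 1 for the vehicle meal, 0 for dex, 3 for the lean meal, 1 for the obese meal, and 13 for obese against lean fed mice. With replicates 1 to 3 only, they were 2 for the vehicle meal, 10 for dex, and 1 for the dex by S961 interaction. The causes were not tested.

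Same-numbered mice were not taken as pairs, since the labels name them only as separate replicates. Their deviations correlated by -0.12 to 0.61 in the injected mice (median 0.14, against -0.05 for other numbers) and by -0.20 to 0.22 elsewhere. The injected mice thus shared some variation by replicate number, which the main fits left out. The replicate block raised the calls over all genes from 358 to 966 for dex and from 352 to 928 for the vehicle meal. With the replicate block, the counts of members were 2 for the vehicle meal (Cyp2c70 and Cyp2u1), 1 for S961, 6 for L-GRKO, 1 for the obese meal, and 2 for unfed obese mice, and no other count moved by over 1.5 times.

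With each library left out in turn, the counts ranged from 0 to 4 for ZT10 against ZT14-unfed (0 without either ZT10 mouse, 1 without ZT14-unfed replicate 2) and from 0 to 3 for the NRF meal (1 and 0 without ZT14-fed replicates 1 and 2). They ranged from 0 to 2 for the vehicle meal (2 without fed vehicle replicate 4), 1 to 7 for dex (3, 1, and 3 without vehicle replicates 1, 2, and 3, and 2, 1, and 3 without dex replicates 1, 2, and 3), 1 to 2 for both agents (1 without dex and S961 replicate 2), and 0 to 1 for the interaction (1 without dex replicate 4). They ranged from 1 to 5 for L-GRKO (1 without control replicates 2 or 4 or knockout replicates 1 or 3, 5 without control replicate 3 or knockout replicate 4) and 7 to 21 for L-IRSdKO (8 and 9 without control replicates 2 and 4, 7, 7, and 8 without knockout replicates 2, 3, and 4). They ranged from 1 to 2 for the lean meal (2 without unfed lean replicate 3), 1 to 6 for the obese meal (6 without unfed obese replicate 3, 1 without unfed obese replicate 1 or any fed obese mouse), and 1 to 15 for unfed obese mice (15 without replicate 1). With 2 to 4 mice per group and no read counts, low members near 0.5 RPKM are the least certain.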

Other observations

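Cux2 did not follow the female-biased Cyp2b9 in the diet experiment, as seen in values chosen after those of Cyp2b9 were known. In the unfed obese mice Cyp2b9 was at 0.156, 174, and 11.7 RPKM, and Cux2 was at 2.44, 0.067, and 0.042 RPKM. The mouse highest in Cux2 was the one lowest in Cyp2b9. In unfed lean mice Cux2 was at 2.504, 0.197, and 0.180 RPKM, so that 1 lean mouse was as high.

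GR peaks lay close to the start of members of several subfamilies. The share of all genes with a peak this close was not computed. Within 20 kb, a GR peak lay near 72.2% of the members tested in the injected mice and 30.4% of all placed genes tested there. In the Cyp2c subfamily the peak centre lay 102 bp before the start of Cyp2c37, 96 bp before Cyp2c50, 70 bp before Cyp2c38, 98 bp before Cyp2c39, 180 bp before Cyp2c54, 69 bp before Cyp2c67, and 10 bp after Cyp2c70. Outside it, the centre lay 95 bp before Cyp2e1, 106 bp before Cyp2a22, 135 bp before Cyp2a12 and Cyp3a25, 170 bp before Cyp3a13, and 198 bp before Cyp2d26. Of all these, Cyp2c37 and Cyp2c50 were called lower with dex, Cyp2c50 higher without GR, and Cyp2c38 lower with the meal in NRF mice, while Cyp2c70, Cyp2a12, Cyp2d26, and Cyp3a13 were called only in L-IRSdKO and the others in no comparison.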
